A study of Mus musculus with 6 samples.

Results

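The calcium, calcineurin and NFAT pathway was followed through 10 of its genes, out of 34745 in the deposited table, in mouse T helper cells exposed to fine airborne particles (PM2.5). The genes were taken by symbol: the transcription factor genes Nfatc1, Nfatc2, Nfatc3 and Nfat5, the calcineurin catalytic subunit genes Ppp3ca and Ppp3cb, the calcineurin inhibitor genes Rcan1 and Cabin1, and the calcium entry genes Stim1 and Orai1. All 10 were found once each, and all 10 passed the filter on low counts, which kept 12967 genes. RNA of 2 groups of 3 libraries was sequenced. In the PM2.5 group, naive CD4 T cells from spleens of female C57BL/6 mice aged 6 weeks received particles of under 2.5 micrometres at 100 µg/ml, 6 h after stimulation began. In the PBS group, the same kind of cells received PBS alone. Both groups were stimulated on plates coated with antibodies to CD3e and CD28 for 4 days, with antibodies that block IFN-gamma and IL-4 and with the cytokines IL-2, IL-6, IL-23 and TGF-beta, a mixture that drives naive cells towards IL-17 producing Th17 cells. The antibodies on the plate stand in for antigen, so every culture was driven through its antigen receptor from outside. The labels state neither the make-up of the particles nor whether replicates came from separate cultures or animals, so the p-values cover the spread of these 6 libraries alone, which may be technical.

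In a T cell, the antigen receptor activates phospholipase C-gamma 1, whose product IP3 opens channels that release calcium from the endoplasmic reticulum. STIM proteins sense the emptied store and open ORAI channels in the plasma membrane, and the calcium that enters binds calmodulin and switches on the phosphatase calcineurin. Calcineurin strips phosphates from NFATc proteins, which then enter the nucleus and, often with AP-1, switch on cytokine genes such as Il2. NFAT5 is the odd member: it lacks the calcineurin docking region of the others and is known for the response to osmotic stress. Most of this control acts on proteins, and RNA levels do not show how much calcineurin is active or how much NFAT is in the nucleus.

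The libraries held 25397965 to 27215853 counts in the PM2.5 group and 19511561 to 22353131 in the PBS group. Among the 12967 genes tested, 70.6% were called at an adjusted p of 0.05 (edgeR quasi-likelihood, Benjamini-Hochberg), made up of 35.2% higher and 35.3% lower in PM2.5, and 74.9% had groups that did not overlap. The 9 CD4 T cell markers summed to 2500 to 2550 CPM, a count scaled to library size, in the PM2.5 libraries and 3200 to 3230 CPM in the PBS libraries. Markers of other cells stood far lower. Those of B cells summed to 0.236 to 0.478 CPM in PM2.5 and 1.03 to 1.70 CPM in PBS, those of macrophages and monocytes to 3.05 to 3.52 CPM in PM2.5 and 5.68 to 7.13 CPM in PBS, and those of NK cells to 1.84 to 1.93 CPM in PM2.5 and 3.27 to 3.48 CPM in PBS. Those of dendritic cells summed to 2.56 to 3.50 CPM in PM2.5 and 0.948 to 1.3 CPM in PBS, and those of CD8 T cells to 8.86 to 9.80 CPM in PM2.5 and 10.2 to 11.5 CPM in PBS. Lyz2, Ms4a1, Ncr1, Klra8, Siglech and Fcer1a had no count in any library. The mast cell and basophil list stood at 62.3 to 63.2 CPM in PM2.5 and 18.3 to 19.9 CPM in PBS, nearly all of it Kit. The endothelial and stromal list stood at 47.0 to 50.0 CPM in PM2.5 and 82.7 to 88.0 CPM in PBS, nearly all of it Pecam1. Erythroid markers were at 0 in PM2.5 and reached at most 0.135 CPM in PBS. Single markers could go against the sum of their list. Cd28 stood at 660 to 688 CPM in PM2.5 and 455 to 482 CPM in PBS, while the other CD4 T cell markers were lower in PM2.5. Cd8b1 of the CD8 list and Eomes of the NK list were higher in PM2.5, and Itgax of the dendritic list was lower. Except for the erythroid list, the ranges did not overlap between the groups, and the part of these lists in the results was not tested. In RNA from a whole culture, fewer cells of a type and less RNA per cell cannot be told apart.

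Printed here are 4 stretches before transcription start sites, to show how far the pathway's own recognition sequence occurs at the member that fell most, at the member that rose most and at both starts of Rcan1, a gene known to be switched on by NFAT from its downstream start. Each is 250 bases from RefSeq on GRCm38.p6, 5′ to 3′ on the gene's strand, with the NFAT core GGAAA or its reverse complement TTTCC in capitals.
Nfatc2, chr2:168601658-168601907, minus strand: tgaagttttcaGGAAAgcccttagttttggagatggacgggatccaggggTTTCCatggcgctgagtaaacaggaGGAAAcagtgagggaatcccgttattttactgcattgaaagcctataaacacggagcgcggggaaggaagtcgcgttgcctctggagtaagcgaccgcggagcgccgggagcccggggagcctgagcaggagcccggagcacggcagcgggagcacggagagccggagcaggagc
Orai1, chr5:123014824-123015073, plus strand: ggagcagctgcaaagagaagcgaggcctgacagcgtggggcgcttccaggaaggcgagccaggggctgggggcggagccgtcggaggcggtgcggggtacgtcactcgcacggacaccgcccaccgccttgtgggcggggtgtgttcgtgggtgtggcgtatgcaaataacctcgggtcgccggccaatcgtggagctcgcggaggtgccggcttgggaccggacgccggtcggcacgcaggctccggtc
Rcan1 upstream start, chr16:92466170-92466419, minus strand: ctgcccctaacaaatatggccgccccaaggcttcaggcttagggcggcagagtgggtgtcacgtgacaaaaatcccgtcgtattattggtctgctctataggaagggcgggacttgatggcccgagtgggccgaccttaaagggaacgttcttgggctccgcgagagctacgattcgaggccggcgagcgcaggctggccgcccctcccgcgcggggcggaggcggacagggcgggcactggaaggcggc
Rcan1 downstream start, chr16:92400079-92400328, minus strand: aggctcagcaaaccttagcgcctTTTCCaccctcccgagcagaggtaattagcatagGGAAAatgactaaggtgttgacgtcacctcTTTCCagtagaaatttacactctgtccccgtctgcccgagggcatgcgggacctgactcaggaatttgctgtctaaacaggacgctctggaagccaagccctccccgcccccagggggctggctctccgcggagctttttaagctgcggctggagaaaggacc

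The core occurs 3 times in the Nfatc2 stretch, 3 times before the downstream Rcan1 start, and in neither of the other 2 stretches. A second RefSeq start of Nfatc2 has 1 core in its window (chr2:168590366-168590615, minus strand, not printed). The window of Ppp3cb, a member with a small change, also holds 3. Of 32851 such windows in the RefSeq table, 55.6% hold at least 1 core on either strand and 6.39% hold 3 or more. The downstream Rcan1 window also holds 1 AP-1 site (TGANTCA, in 6.75% of windows) and 1 cyclic AMP response element (TGACGTCA, in 1.55%), and no 2 matches of different motifs overlap there. The ATF4 composite site TGATGNAA (in 3.45% of windows) occurs in none of the 11 windows found for 8 members. A match describes letters only, and the counts below add up all transcripts of a gene, so the 2 starts of Rcan1 cannot be separated in them.

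The members moved both ways. Under PM2.5, 6 of the 10 rose (Nfatc1, Nfatc3, Nfat5, Ppp3ca, Cabin1 and Orai1), 3 fell (Nfatc2, Ppp3cb and Stim1) and Rcan1 did not pass. Passing was common: 9 of 10 is 90.0%, beside 70.6% of all genes tested, so the sizes tell more than the count. Of the 10 members, 2 rose (Orai1 and Nfat5) and 1 fell (Nfatc2) by at least 2-fold and passed. That share is larger than the 18.9% of all genes tested, but it comes from 10 genes and the difference was not tested. The median log2 fold change of the members was 0.19, beside -0.01 over all genes tested, and their median size of change 0.46, beside 0.43.

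**Figure D1:**
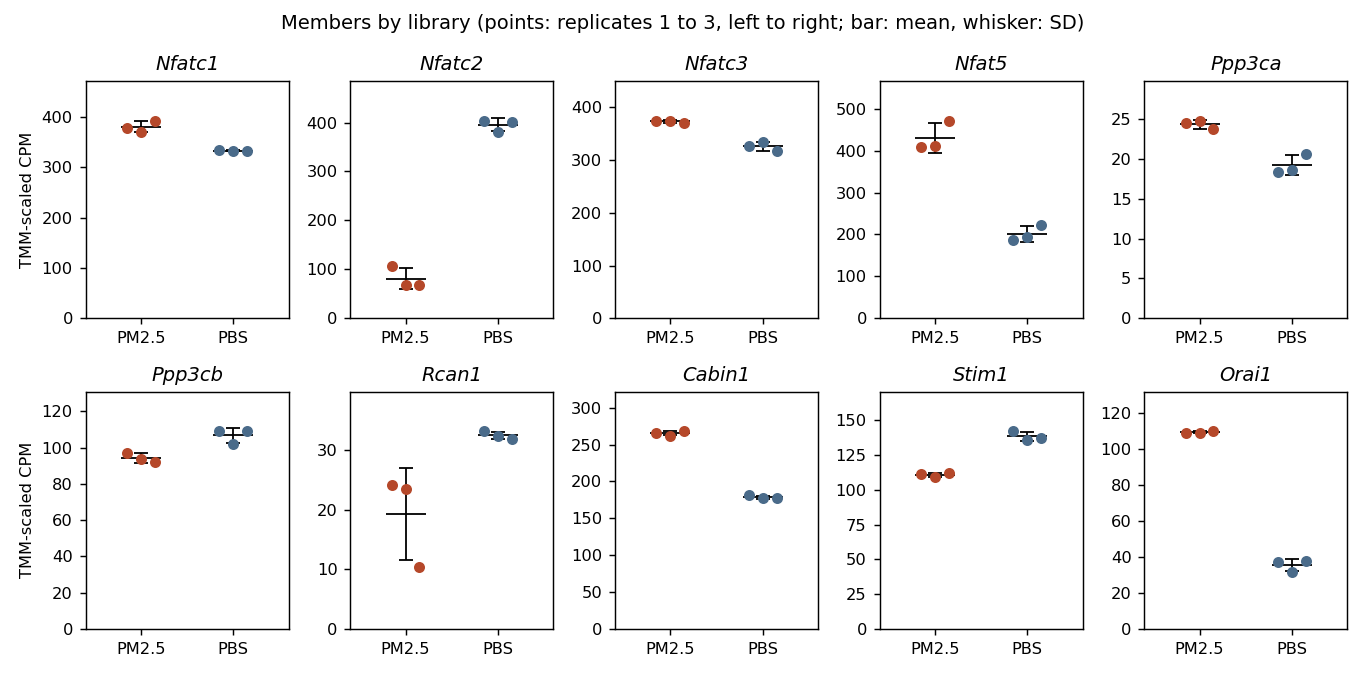
TMM-scaled CPM (vertical axis, from 0) of each member in the 3 PM2.5 libraries (left, red) and the 3 PBS libraries (right, blue), with the mean as a bar and the SD as a whisker. The groups do not overlap for any of the 10 genes, and neither do they for 74.9% of all genes tested. Rcan1 spreads from 10.4 to 24.1 CPM among the PM2.5 libraries, and Nfatc2 from 68.2 to 106 CPM.

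Levels below are CPM scaled by TMM, a factor that corrects for the make-up of each library, with the SD over 3 libraries; positions are those of the deposited table, in mm10. Nfatc2, whose protein NFAT1 is the form already present in resting T cells (ENSMUSG00000027544, chromosome 2, 168476410 to 168601657), had 106, 68.2 and 68.2 CPM in the PM2.5 libraries, against 404, 381 and 402 CPM in the PBS libraries. The highest PM2.5 library stood far below the lowest PBS library, and PM2.5 replicate 1 stood above the other 2. The gene fell 4.9-fold, to 80.8 ± 21.7 CPM under PM2.5, against 396 ± 12.6 CPM with PBS (log2 fold change -2.29, SE 0.21, adjusted p = 0.000667). Of the 12967 genes tested, 373 had a lower log2 fold change. Without PM2.5 replicate 1 its log2 fold change was -2.53.

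Nfatc1 and Nfatc3 rose slightly. Nfatc1, which encodes the form that activation induces through its own gene (ENSMUSG00000033016, chromosome 18, 80606205 to 80713071), had 379, 371 and 393 CPM under PM2.5, against 335, 332 and 333 CPM with PBS, a rise of 1.14-fold (log2 fold change 0.19, SE 0.03, adjusted p = 0.000218). Nfatc3, whose protein is abundant in thymocytes and T cells (ENSMUSG00000031902, chromosome 8, 106059603 to 106130537), had 375, 375 and 370 CPM under PM2.5, against 326, 334 and 318 CPM with PBS, a rise of 1.15-fold (log2 fold change 0.20, SE 0.03, adjusted p = 0.000146). Both groups were tight and the rises small. Under library totals, which moved the median of all genes to -0.07 on the log2 scale, each gene stood at 0.13 and still passed. Nfatc4, the remaining calcium-regulated member of the family, had 5 to 12 counts per library under PM2.5 and 3 to 14 with PBS, and was not tested.

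The proportions among the NFAT genes with a calcineurin docking region differed between the groups. Nfatc2 made up 5.07, 3.35 and 3.29% of the summed FPKM, a level per gene length, of Nfatc1, Nfatc2 and Nfatc3 under PM2.5, against 18.9, 17.8 and 19% with PBS. The share of Nfatc1 was 41.8 ± 1.08% under PM2.5 and 35.5 ± 0.28% with PBS (SD, n = 3 each), and the groups did not overlap. A two-sided exact permutation test over the libraries gave p = 0.1, the smallest that 3 against 3 libraries allow (0.1 also after Benjamini-Hochberg adjustment over the 4 shares tested). The sum of the 3 genes was 112 ± 1.51 FPKM under PM2.5 and 121 ± 0.46 FPKM with PBS. The FPKM give Nfatc2 a length of 18031 bases, against 10578 bases of exons in GENCODE M21. On GENCODE M21 lengths Nfatc2 had 7.46 under PM2.5 and 38.2 with PBS, Nfatc1 49.9 and 45.6, and Nfatc3 31.1 and 28.4. The drop in the sum is thus larger on those lengths. A share within a library does not depend on the scaling between libraries, but it does depend on the length assigned to each gene. With exon lengths of GENCODE M21 the share of Nfatc2 was 8.41 ± 2.07% under PM2.5 and 34.1 ± 0.86% with PBS.

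Nfat5 (ENSMUSG00000003847, chromosome 8, 107293470 to 107379517) had 409, 412 and 472 CPM under PM2.5, against 187, 195 and 222 CPM with PBS. It rose 2.14-fold (log2 fold change 1.10, SE 0.09, adjusted p = 8.16e-05), with every PM2.5 library above every PBS library. Of 8 genes listed as targets of NFAT5 in osmotic stress, 7 were tested, 4 rose and 3 fell (median log2 fold change 0.40). The share called was 100%, beside 70.6% of all genes tested. Slc38a2, an amino acid transporter, had 654, 654 and 657 CPM under PM2.5 and 228, 225 and 221 CPM with PBS, 2.91-fold higher. Slc5a3, the myo-inositol transporter, rose 2.3-fold and Slc6a6, the taurine transporter, 1.32-fold. The position of Slc5a3 overlaps that of Mrps6, which has up to 1948 counts, so reads of the 2 genes may not be separable. Sgk1, a kinase gene induced by salt and by glucocorticoids, fell to 18.3 ± 0.68 CPM under PM2.5, against 148 ± 6.63 CPM with PBS. Slc38a2, Slc6a6 and Hspa1b (2.81-fold) thus rose with Nfat5, as did Slc5a3 within the limit of its overlap. Sgk1, S100a4 (2.04-fold) and Akr1b3 (1.18-fold) fell. Slc6a12, the betaine transporter, had at most 3 counts in a library.

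**Figure D2:**
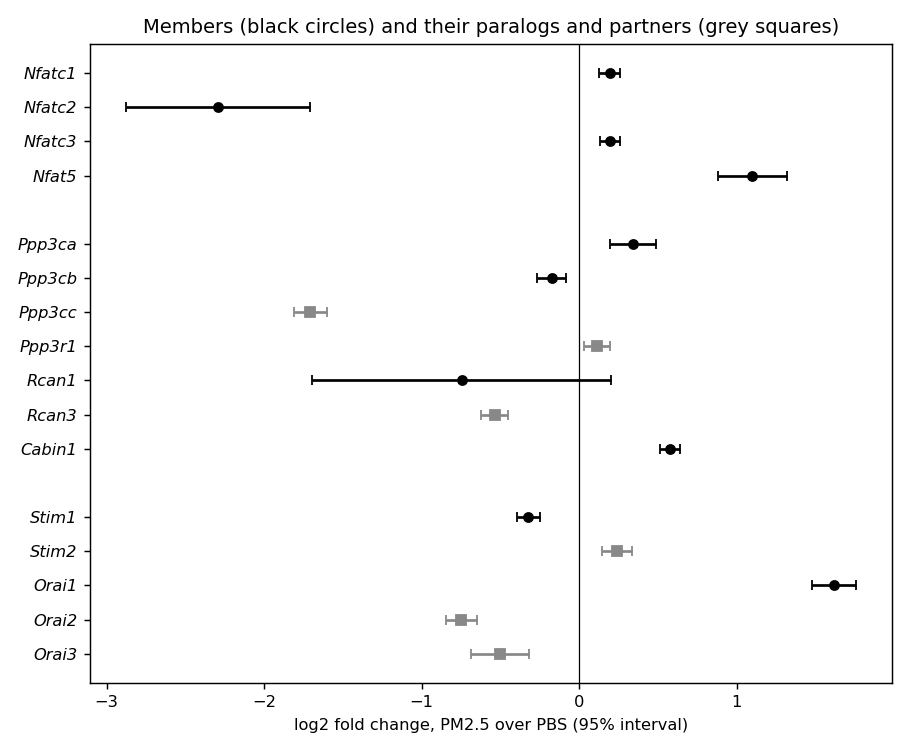
Log2 fold change of PM2.5 over PBS (horizontal axis) with its 95% interval for the 10 members (black circles) and 6 of their paralogs and partners (grey squares), from edgeR. Nfatc2 (-2.29) and Ppp3cc (-1.71) lie farthest to the left and Orai1 (1.62) farthest to the right, and the interval of Rcan1 crosses 0.

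Calcineurin consists of a catalytic subunit, a regulatory subunit and bound calmodulin. Ppp3ca, the gene of the alpha catalytic subunit (ENSMUSG00000028161, chromosome 3, 136670124 to 136937727), had 24.5, 24.8 and 23.7 CPM under PM2.5, against 18.3, 18.6 and 20.6 CPM with PBS, a rise of 1.27-fold (log2 fold change 0.34, SE 0.07, adjusted p = 0.000957). Ppp3cb, the gene of the beta catalytic subunit (ENSMUSG00000021816, chromosome 14, 20499364 to 20546573), had 97.2, 93.6 and 92.0 CPM under PM2.5, against 109, 102 and 109 CPM with PBS, a fall of 1.13-fold (log2 fold change -0.18, SE 0.04, adjusted p = 0.00297). These are small shifts in opposite directions. The larger change was in the gamma catalytic subunit gene, Ppp3cc, with 23.5, 25.2 and 25.4 CPM under PM2.5, against 80.7, 80.8 and 80.2 CPM with PBS. It fell 3.26-fold (log2 fold change -1.71, SE 0.05, adjusted p = 4.11e-10).

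Summed over the 3 catalytic genes, the level was 22.9 ± 0.27 FPKM under PM2.5 and 54.0 ± 0.54 FPKM with PBS. The FPKM give Ppp3cc a length of 1948 bases, against 2985 bases of exons in GENCODE M21. The drop in the sum is smaller on GENCODE M21 lengths. The share of Ppp3ca in the summed FPKM was 9.23, 9.12 and 8.76% under PM2.5, against 3.01, 3.10 and 3.39% with PBS (exact permutation p = 0.1). Ppp3cc held 54.0 ± 1.65% of the sum under PM2.5 and 78.3 ± 0.70% with PBS. Ppp3cb held 37.0 ± 1.45% under PM2.5 and 18.5 ± 0.62% with PBS. With GENCODE M21 exon lengths Ppp3cc held 38.6 ± 1.57% under PM2.5 and 65.8 ± 0.92% with PBS, so the fall of its share did not hang on the authors' lengths, but its rank did: Ppp3cb then led in the PM2.5 libraries.

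The other calcineurin genes mostly fell. Of 11 listed, 8 were tested, 7 fell and 1 rose (median log2 fold change -0.53). The share called was 100%, beside 70.6% of all genes tested, made up of 35.2% higher and 35.3% lower. Among those that fell, Ppia (adjusted p = 0.0294) lost its call in 8 of 15 alternatives (range 0.00768 to 0.124). Fkbp1a, whose protein FKBP12 binds calcineurin when loaded with the drug tacrolimus, had 178, 180 and 177 CPM under PM2.5 and 291, 285 and 292 CPM with PBS. The calmodulin genes Calm2 (1.58-fold) and Calm3 (1.44-fold) fell; calmodulin genes have processed pseudogenes and their values are uncertain. The regulatory subunit gene Ppp3r1, at 0.11 on the log2 scale, was the 1 that rose, with an adjusted p of 0.0191, and it lost this call in 7 of 15 alternatives (adjusted p 0.0105 to 0.265). The testis form Ppp3r2, and Rcan2, had no count in any library, and the anchor gene Akap5 was too low to test.

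The inhibitors differed. Rcan1, whose protein binds calcineurin and limits it, and whose gene is itself a calcineurin and NFAT target (ENSMUSG00000022951, chromosome 16, 92391953 to 92466146), had 24.1, 23.5 and 10.4 CPM under PM2.5, against 33.2, 32.4 and 31.9 CPM with PBS. Every PM2.5 library was below every PBS library, but PM2.5 replicate 3 stood far below the other 2. The log2 fold change was -0.75 (SE 0.35, 95% interval -1.69 to 0.20) and did not pass (adjusted p = 0.124). Without PM2.5 replicate 3 the gene stood at -0.44 and passed (adjusted p = 0.000206), with a range of adjusted p over the alternatives of 0.000206 to 0.237. PM2.5 replicate 3 held 258 counts of the gene (exact Poisson 95% interval 227.5 to 291.5), PM2.5 replicate 1 held 641 (592.3 to 692.6) and PM2.5 replicate 2 held 601 (553.9 to 651.0). These intervals cover counting error only, and that of replicate 3 lies apart from the others.

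Such jumps were uncommon. Among the 9920 genes that averaged 5 CPM or more, Rcan1 was 1 of 12 that stood over 2-fold below both other libraries in PM2.5 replicate 3, and 69 genes had a wider ratio of highest to lowest PM2.5 library than its 2.32. Nfatc2 was 1 of 43 genes above 1.5 times both other libraries in PM2.5 replicate 1. The median ratio of highest to lowest library was 1.07 in the PM2.5 group and 1.09 in the PBS group. Every other member lay at or below 1.15 under PM2.5.

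Cabin1 encodes a large protein that binds calcineurin and represses the transcription factor MEF2 (ENSMUSG00000020196, chromosome 10, 75646110 to 75764357). It had 266, 262 and 268 CPM under PM2.5, against 181, 177 and 177 CPM with PBS. It rose 1.49-fold (log2 fold change 0.57, SE 0.03, adjusted p = 3.23e-08), with SDs of 2.81 CPM under PM2.5 and 2.08 CPM with PBS. Rcan3, a relative of Rcan1 named here after its value was seen, fell 1.45-fold, so that 1 inhibitor gene rose, 1 fell and Rcan1 did not pass.

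Calcium entry showed the largest rise among the members. Orai1, the gene of the pore of the calcium release-activated channel (ENSMUSG00000049686, chromosome 5, 123015074 to 123030456), had 109, 109 and 110 CPM under PM2.5, against 37.2, 31.7 and 37.8 CPM with PBS. It rose 3.07-fold (log2 fold change 1.62, SE 0.06, adjusted p = 4.90e-09), and the PM2.5 libraries were nearly identical. Its paralogs went the other way. Orai2, which lowers the current when it joins the channel in mouse T cells, had 51.2, 48.3 and 47.6 CPM under PM2.5 and 83.1, 80.3 and 83.4 CPM with PBS, a fall of 1.68-fold (adjusted p = 1.07e-07). Orai3, a pore form of mammals, fell 1.42-fold (adjusted p = 0.000315). Orai1 thus held 76.3, 76.0 and 77.1% of the summed FPKM of the 3 pore genes under PM2.5, against 41.8, 38 and 41.0% with PBS, a difference of 36.2 percentage points (exact permutation p = 0.1). The summed level was 35.6 ± 0.17 FPKM under PM2.5 and 22.9 ± 1.27 FPKM with PBS.

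Stim1, the gene of the main sensor of the store (ENSMUSG00000030987, chromosome 7, 102267824 to 102436848), had 111, 109 and 112 CPM under PM2.5, against 142, 136 and 137 CPM with PBS, a fall of 1.25-fold (log2 fold change -0.32, SE 0.03, adjusted p = 8.87e-06). With offsets for GC content and length, chosen after seeing the data, it stood at -0.17 and still passed. Stim2, the more sensitive form that answers to small losses of stored calcium, rose 1.18-fold (adjusted p = 0.000498). Stim1 held 75 ± 0.80% of the summed FPKM of both sensors under PM2.5 and 81.6 ± 0.22% with PBS (exact permutation p = 0.1). On GENCODE M21 lengths the same share was 39.8 ± 1.03% under PM2.5 and 49.4 ± 0.36% with PBS, so which sensor has more RNA depends on the length used, while the direction of the change does not. The sensor and the pore gene moved in opposite directions.

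**Figure D3:**
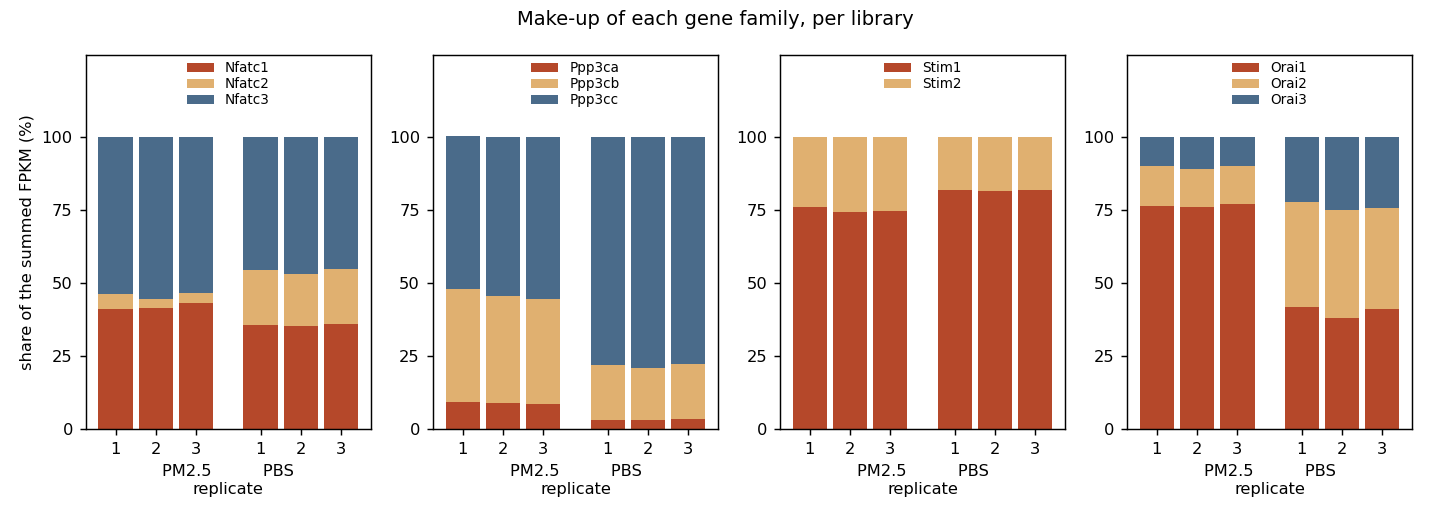
Share of the summed FPKM (vertical axis, percent) held by each gene of 4 families in each library, PM2.5 replicates 1 to 3 on the left of each panel and PBS replicates 1 to 3 on the right. Nfatc2 and Ppp3cc hold less, and Orai1 more, in every PM2.5 library than in any PBS library.

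Among the members, Nfatc3 had the highest level per length under PM2.5 (60.7 ± 0.43 FPKM), followed by Nfatc1 (46.8), Cabin1 (34.8), Stim1 (30.1), Orai1 (27.2), Nfat5 (10.6), Ppp3cb (8.48), Rcan1 (7.54), Nfatc2 (4.38) and Ppp3ca (2.07). The libraries of Rcan1 overlapped those of both its neighbours in this order. With PBS the order was Nfatc3 (55.4 ± 1.12 FPKM), Nfatc1 (42.8), Stim1 (39.3), Cabin1 (24.4), Nfatc2 (22.4), Rcan1 (13.3), Ppp3cb (10.0), Orai1 (9.25), Nfat5 (5.17) and Ppp3ca (1.71), with overlap of Ppp3cb and Orai1. Orai1 thus moved up and Nfatc2 down the order. The FPKM use lengths that differ from the GENCODE M21 exon union, such as 3597 against 10371 bases for Stim1 and 39806 against 18378 bases for Nfat5. On the GENCODE lengths Nfatc1 came first in both groups, Orai1 was the second under PM2.5, and Nfatc2 was the second with PBS.

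The genes whose pattern over the 6 libraries lay nearest to Nfatc2, by Euclidean distance of centred log2 CPM among 9919 genes, were Cracr2a (0.317), Srgap1 (0.319) and the predicted gene Gm26740 (0.358). Cracr2a, whose product regulates ORAI1 and STIM1 as a calcium sensor, had 2.33, 1.96 and 1.89 CPM under PM2.5 and 11.4, 9.93 and 11.3 CPM with PBS. With 2 groups that lie far apart, such a distance is set mostly by the size of the change, and it is given as a description.

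Of 15 genes of calcium release, pumps and IP3 handling, 7 fell and 4 rose (median log2 fold change -0.25). The share called, 73.3%, lay near the 70.6% of all genes tested. Plcg1, the gene of phospholipase C-gamma 1, had 116, 116 and 121 CPM under PM2.5 and 557, 514 and 551 CPM with PBS. It fell 4.59-fold (log2 fold change -2.20, SE 0.04, adjusted p = 1.88e-11); the neighbouring Zhx3, which overlaps it, has at most 474 counts in a library, against at least 2970 of Plcg1. Itpr3, an IP3-gated channel gene of the endoplasmic reticulum, had 95, 96 and 103 CPM under PM2.5 and 481, 428 and 488 CPM with PBS, 4.75-fold lower. Itpkb, the kinase that turns IP3 into IP4, fell 2.2-fold, and Atp2a3, a pump that refills the store and is common in blood cells, fell 2.55-fold. The 11 genes of this list not named here had log2 fold changes between -0.67 and 1.01, and 4 of them did not pass. Plcg1 and Itpr3 thus had log2 fold changes close to that of Nfatc2, and their PM2.5 libraries lay closer together, relative to their level, than those of Nfatc2, while with PBS those of Nfatc2 lay closest.

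Of 10 genes of store-operated entry, 9 were tested, 4 fell and 3 rose (median log2 fold change 0.11). The share called, 77.8%, is close to the 70.6% of all genes tested. Stim2, Kcna3 and Saraf rose, and Cracr2a and both Orai paralogs were among those that fell. Kcna3, the gene of the potassium channel Kv1.3, which holds the membrane voltage that draws calcium in, had 32.5, 30.8 and 34.5 CPM under PM2.5 and 8.04, 7.86 and 9.67 CPM with PBS, 3.82-fold higher. Saraf, which turns store-operated entry off, rose 1.29-fold (adjusted p = 2.77e-06). Kcnn4 and Tmem110 did not pass.

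Kinases that rephosphorylate NFAT or hold it in the cytoplasm were higher in 5 of 8 cases and lower in 1 (median log2 fold change 0.24), 75.0% called beside 70.6% of all genes tested. The 5 became 4 in 8 of 15 alternatives, through Dyrk2 (adjusted p = 0.0378, range 0.000367 to 0.208), and 6 in 2 others. Lrrk2, a kinase gene whose product restrains NFAT through the noncoding RNA Nron, had 45.5, 45.2 and 42.1 CPM under PM2.5 and 13.0, 13.6 and 12.6 CPM with PBS, 3.39-fold higher (adjusted p = 2.06e-09). Csnk1a1 and Csnk1d, of the casein kinase 1 family, and Gsk3a rose 1.26-, 1.17- and 1.19-fold. Gsk3a overlaps another gene of the table with up to 342 counts, far below its own. Dyrk1a and Csnk1e did not pass. Apart from Lrrk2 the changes in this list were small, from -0.14 to 0.33 on the log2 scale.

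**Figure D4:**
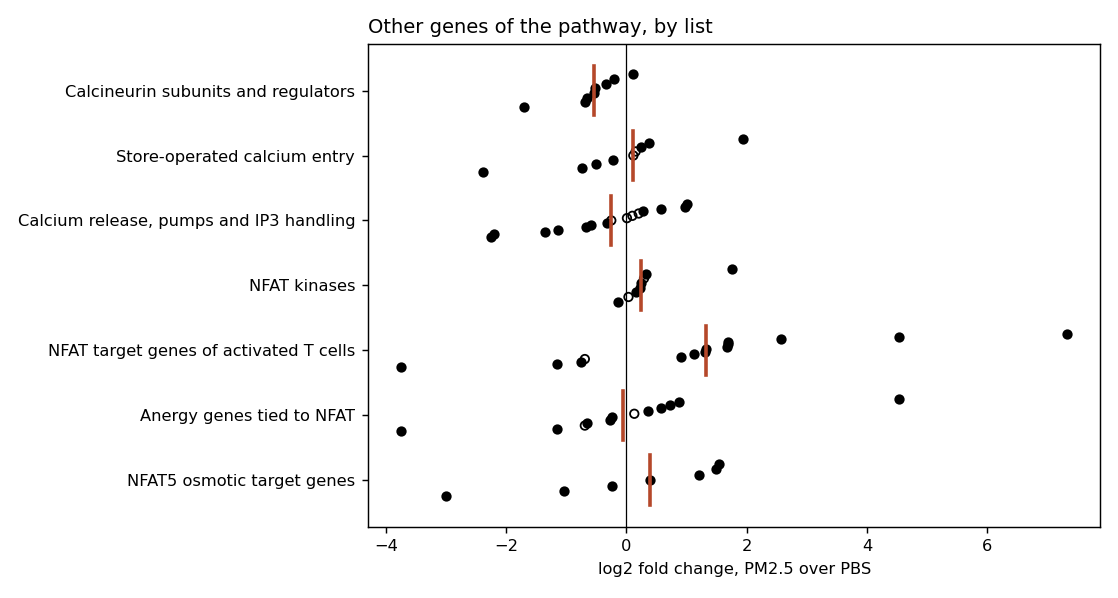
Log2 fold change of PM2.5 over PBS (horizontal axis) of each tested gene of 7 lists (rows). Filled points passed the adjusted p of 0.05, open points did not, and red bars are medians; Il3, which has no count in any PBS library, is left out. The list of NFAT target genes reaches from Egr3 (-3.75) to Il2 (7.33).

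Targets of NFAT in activated T cells were mostly higher: of 16 listed, 15 were tested, 11 rose and 3 fell, with a median log2 fold change of 1.32 both with and without Il3, beside -0.01 over all genes. The share called was 93.3%, beside 70.6% of all genes tested, made up of 35.2% higher and 35.3% lower. The list was drawn up with results of these libraries known, so its direction is not independent evidence. Cd69, an early activation marker that keeps cells in tissue, had 501, 484 and 479 CPM under PM2.5 and 80.7, 86.1 and 79.3 CPM with PBS, 5.94-fold higher (adjusted p = 9.06e-12). Ctla4, the inhibitory receptor, rose 3.22-fold and Irf4, a transcription factor of effector cells, 2.48-fold. Egr3, an early growth response factor that depends on calcineurin signalling, fell to 3.19, 3.10 and 3.18 CPM under PM2.5, against 41.8, 41.1 and 44.5 CPM with PBS, 13.4-fold lower (adjusted p = 3.19e-11). Cd69, Ctla4 and Irf4 thus rose while Egr3 fell. Egr2 had 25.7, 24.2 and 30.5 CPM under PM2.5, against 49.2, 30.0 and 50.6 CPM with PBS, so the groups overlapped through PBS replicate 2. Its log2 fold change of -0.69 did not pass (adjusted p = 0.0553) but passed in 7 of 15 alternatives, among them the replicate block, DESeq2 and the fit without PBS replicate 2 (range of adjusted p 0.000103 to 0.16). Il4 was too low to test.

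Genes listed as tied to NFAT in anergy, the unresponsive state of T cells stimulated through the antigen receptor without CD28, were split. Of 12, 5 rose and 5 fell (median log2 fold change -0.05). The share called was 83.3%, beside 70.6% of all genes tested. All genes tested were divided about evenly too, with 35.2% higher and 35.3% lower. Egr2, Egr3 and Nr4a1 are also in the list of targets above. Ndrg1 (23.1-fold) and Cblb, the gene of a ubiquitin ligase that damps receptor signalling (1.84-fold), rose. Nr4a1, an orphan nuclear receptor induced by antigen receptor signals, fell 2.23-fold and Dgka, the gene of a kinase that removes diacylglycerol, 1.58-fold. Rnf128, the ubiquitin ligase GRAIL, had under 1 CPM on average in each group and did not pass.

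**Figure D5:**
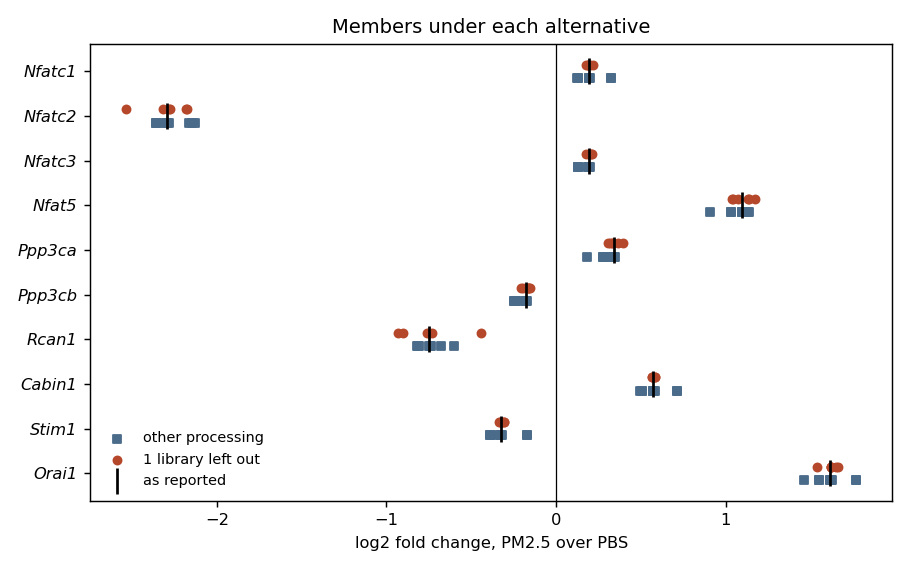
Log2 fold change of each member (horizontal axis) as reported (black ticks), with 1 library left out (red circles) and under the other alternatives (blue squares). All values of a member stay on 1 side of 0; Rcan1 moves most, between -0.93 and -0.44.

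For the other 9 members, no single library decided a call: they passed in the same direction in all 15 alternatives tried, 6 of which leave out 1 library each. Few reads of other genes lie at the members' positions. The genes of the table that overlap a member had at most 18 counts in a library, that of 1810062O18Rik beside Ppp3cb.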

How the data were processed

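Expression was measured by RNA-seq in 6 libraries, 3 PM2.5 and 3 PBS. The authors deposited raw counts per Ensembl gene and FPKM, per the file headers. For the 9540 genes of over 100 counts, the deposited FPKM equal the count over the library total and 1 fixed length per gene, to within 0.00086%. The submitters' processing notes name TopHat2 2.0.6 and mm10. Counting program, annotation and strand handling are each not given in the sources used here, so overlapping, antisense or near-identical genes can share reads.

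Genes were filtered with filterByExpr (minimum count 10, minimum total 15), which kept 99.9% of the counts, scaled by TMM and tested in edgeR 4.0.16 under R 4.3.3 (glmQLFit, robust, glmQLFTest, two-sided, all 6 libraries). P-values were adjusted by Benjamini-Hochberg over all genes tested, at 0.05. SEs were obtained by dividing the size of each log2 fold change by the root of its F value. Shares were compared by exact permutation over libraries. Alternatives used DESeq2 1.42.0, limma 3.58.1 on log2(FPKM + 1), other scalings and filters, a replicate block, libraries left out and, added after seeing the data, GC and length offsets and GENCODE M21 lengths. The procedure was also run on simulated data in which far fewer genes changed than were called here. That run cannot show how the procedure behaves when most genes change.

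A count of 0 allows up to 0.110 to 0.154 CPM (3 counts, counting error only). Replicate pairs differed by a chi-square of 7.57 to 9.89 per degree of freedom, more than counting error alone gives. This cannot show whether the libraries are independent, and each library was counted once. The members and lists were chosen with earlier results of these data known. Named are all members, the paralogs used for shares and up to 4 genes per list with the smallest adjusted p. The 3 nearest patterns to the member with the largest change are named too. Other genes fall outside this rule and were named after their values were seen. These are Rcan3, Ppp3r1, Ppia, Dyrk2, Akr1b3, S100a4 and Hspa1b, single cell type markers, and the genes that did not pass or were not tested. Il2 and Il3 in the caption are also among them.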

Additional observations from a re-analysis of the deposited data

How the results depend on the processing

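The count of genes called was 9149 as reported, 7342 among genes of at least 5 CPM, 8369 with DESeq2 and 9582 with no filter, and lay between these in the rest. The labels do not say whether the numbers in the titles pair the libraries. Deviations of same-numbered libraries correlated at 0.0134, 0.0072 and 0.045. PM2.5 replicates 1 and 3 correlated best with the PBS library of the same number, and PM2.5 replicate 2 with PBS replicate 1 (0.0235). Correlations this small cannot show whether the libraries were paired. With the replicate block 9002 genes were called, and 9102 with the block and the GC and length offsets; the block changed no call of a member. Rcan1 passed with limma on log2(FPKM + 1), at -0.81 (adjusted p = 0.0462). With 1 library left out its log2 fold change ranged from -0.93 to -0.44, and it passed only without PM2.5 replicate 3. The members that fell then numbered 4 in each case, against 3 as reported; 6 rose in every alternative. The 30 other named genes chosen by adjusted p or as paralogs kept direction and call in all 450 repeats. Counts in the other lists moved by at most 1 gene, except targets higher, 11 as reported and 9 among genes of at least 5 CPM. Egr2 added 1 to the targets and to the anergy genes that fell in 7 of 15 alternatives. The Nfatc1 share differed by 6.35 percentage points as reported, 14.0 on counts and 15.8 on GENCODE lengths; no share turned in direction. The small rises of Nfatc1 and Nfatc3 came to 0.13 with library totals, among genes of at least 5 CPM and in limma, and the GC and length offsets put Nfatc1 at 0.32, with the cause not tested. With 3 libraries a group, no exact test of a share could go below 0.1.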
